A study of Mus musculus with 12 samples.

Results

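Mcl1 and 7 further genes of the BCL2 family were followed in myeloid cells sorted from the mouse brain. The 8 genes, Mcl1, Bcl2, Bcl2l1, Bcl2l11, Bcl2a1a, Bcl2a1b, Bcl2a1d and Pmaip1, were taken by symbol from the 31053 genes listed in every library, and each symbol was found. The study asked how taking the brain apart changes the transcripts of microglia, the resident macrophages of the brain. Single-cell libraries came from 12 male C57BL/6J mice at postnatal day 90, 1 library and 1 whole brain per animal, from live cells sorted as CD45+ and CD11b+. Brains were either pressed apart in a cold Dounce homogenizer (DNC) or digested with enzymes at 37 °C (ENZ). In each preparation 3 animals were processed without inhibitors (NONE) and 3 with inhibitors (INHIB). Actinomycin D and triptolide, which block transcription, were present from perfusion onwards, and anisomycin, which blocks translation, from dissection onwards. The groups are thus DNC-NONE (replicates 1 to 3), DNC-INHIB (4 to 6), ENZ-NONE (4 to 6) and ENZ-INHIB (1 to 3). All 4 groups had n = 3. The labels name 2 batches, which were uneven between the inhibitor arms. DNC-NONE and ENZ-NONE each had 2 libraries in batch 1 and 1 in batch 2. DNC-INHIB and ENZ-INHIB each had 1 in batch 1 and 2 in batch 2, so inhibitor arm and batch are partly mixed. All animals were unmodified and of 1 sex, 1 age and 1 strain, and dead cells were gated out during the sort.

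Proteins of the BCL2 family decide whether the outer membrane of the mitochondrion stays closed. The guardians, MCL1, BCL2, BCL-XL (from Bcl2l1) and A1 (from the Bcl2a1 genes), hold back the pore formers BAX and BAK, and the BH3-only proteins BIM (from Bcl2l11) and NOXA (from Pmaip1) bind guardians and release that block. MCL1 and NOXA, which pair with each other, are proteins of short life, and the mRNAs of Mcl1 and the Bcl2a1 genes are known as short-lived too. Myeloid cells are known to rely on MCL1 and A1, and BIM limits the survival of many blood cells.

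The genes lie on 5 chromosomes of GRCm38. Mcl1 spans positions 95658788 to 95663176 of chromosome 3 and Bcl2 positions 106538178 to 106714274 of chromosome 1. Chromosome 2 holds Bcl2l11 (128126038 to 128162547) and Bcl2l1 (152780668 to 152831728). The Bcl2a1 genes sit within 1 stretch of chromosome 9, Bcl2a1d at 88723285 to 88731914, Bcl2a1a at 88956900 to 88962419 and Bcl2a1b at 89199209 to 89207827. All 8 are protein-coding. Bcl2 overlaps Mir3473f and Gm37053 on its own strand and D630008O14Rik on the other, Bcl2a1b overlaps Gm29094 on its own strand, and Bcl2a1d overlaps Gm10634 on the other, so their counts may include or lose reads of these neighbours.

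The 3 Bcl2a1 genes are near copies, which bears on every count given for them. Over the last 500 bases of their longest protein-coding transcripts in GENCODE, Bcl2a1a and Bcl2a1b are 98.8% identical, and Bcl2a1d is 99.4% identical to either. Of the 98-base windows in that stretch, 36.5% of those of Bcl2a1a, 34.2% of those of Bcl2a1b and 58.8% of those of Bcl2a1d also occur in another Bcl2a1 gene. Reads from such windows fit several genes equally well and are not counted, so the split between the 3 genes is uncertain. The likeness reaches the DNA before the genes: within the 300-base RefSeq windows around the start (GRCm38.p6), alignable bases were 99.2% identical between Bcl2a1a and Bcl2a1b, 96.0% between Bcl2a1a and Bcl2a1d and 96.5% between Bcl2a1b and Bcl2a1d. The part of each window that lies before the annotated gene is printed here to show this likeness, from chr9:88956670-88956899 (Bcl2a1a, plus strand), chr9:89199023-89199208 (Bcl2a1b, plus strand) and chr9:88731915-88732100 (Bcl2a1d, minus strand). Each runs 5′ to 3′ on the strand of its gene. Capitals mark matches to AP-1 letters (TGANTCA) and to EGR letters (GCGNGGGCG), searched on both strands.
Bcl2a1a: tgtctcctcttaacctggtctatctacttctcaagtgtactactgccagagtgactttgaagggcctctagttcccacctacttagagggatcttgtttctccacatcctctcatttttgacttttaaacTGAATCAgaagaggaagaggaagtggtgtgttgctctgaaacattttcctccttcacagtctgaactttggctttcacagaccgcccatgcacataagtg
Bcl2a1b: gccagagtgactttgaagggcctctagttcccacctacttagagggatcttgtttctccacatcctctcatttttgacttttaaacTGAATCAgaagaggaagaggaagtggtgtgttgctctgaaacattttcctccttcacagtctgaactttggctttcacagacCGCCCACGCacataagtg
Bcl2a1d: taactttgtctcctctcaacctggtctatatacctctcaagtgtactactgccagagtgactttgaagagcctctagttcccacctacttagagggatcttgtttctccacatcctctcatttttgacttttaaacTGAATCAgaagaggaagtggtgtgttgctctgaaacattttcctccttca

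The AP-1 letters stand in all 3 stretches as TGAATCA, and 7.81% of the 32851 promoter windows given for the mouse hold a match. The EGR letters matched in the windows of Bcl2a1b, Bcl2a1d (past the end of the stretch printed) and Bcl2l11 (the first of its 2 windows), and not in that of Bcl2a1a, against 5.55% of all windows. Letters of the NF-kB consensus matched in 1 of the 3 windows of Bcl2l1 and in 4.51% of all windows. No member window held the letters of the cyclic AMP response element, the STAT site (TTCNNNGAA) or the CArG box, and the Mcl1 and Bcl2 windows held none of the 6 motifs. Windows were given for 7 of the 8 members, and Pmaip1, which had none, was not searched. A match describes letters only.

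The deposited matrices held 28426 cells. After filtering, 18827 cells with 26846640 unique molecular identifiers (UMIs, 1 for each captured transcript) remained, 853 to 2185 cells and 1059783 to 3233159 UMIs per library. By clusters built without the 8 genes, 95.4% of cells were microglia-like, and all 9 microglia markers were detected in every library. Small clusters were border macrophage-like (315 cells, of which 210 formed a cluster led by H2-Eb1, H2-Aa and Cd74 and 105 one led by Pf4 and Mrc1), monocyte-like (132 cells, led by S100a8) and dendritic cell-like (58 cells, led by Cd209a). Further small clusters were interferon-responsive-like (324 cells, led by Ifit3) and proliferating-like (31 cells, led by Top2a). The summed level of 8 neutrophil markers ran from 1.56 to 4053 CPM (counts scaled to a library total of 1000000), highest in DNC-NONE replicates 3 and 2, and that of 7 monocyte markers from 27.7 to 277.7; their part in the results was not tested. DNC-NONE replicate 1 and ENZ-NONE replicate 6 stood apart from their groups in 19 activation genes that the study had listed from another data set. At least 4 of them were carried by 197 of 4088 DNC-NONE cells, of which 6 and 16 came from replicates 2 and 3 and the rest from replicate 1. In ENZ-NONE, 1007 of 1748 cells of replicate 6 carried them, against 435 of 1570 and 318 of 1119 in replicates 4 and 5. Of the kept barcodes, 236 occurred in more than 1 library.

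Levels are given as CPM. In these sums, fewer cells that express a gene and less RNA of it per cell cannot be told apart. A group difference was called where edgeR's quasi-likelihood test over the 12 libraries gave a Benjamini-Hochberg adjusted p under 0.05 and a log2 fold change beyond 0.58 either way. All 8 genes passed the count filter. None of the 8 was called in any of the 6 comparisons between groups. Among the 9882 genes tested, the percentage called was 0.465% in ENZ-NONE vs DNC-NONE, 0.739% in ENZ-NONE vs DNC-INHIB, 0.293% in ENZ-NONE vs ENZ-INHIB, 0.202% in ENZ-INHIB vs DNC-INHIB and 0.172% in ENZ-INHIB vs DNC-NONE. DESeq2 called none of the 8 either. An unadjusted p under 0.05 was reached by 1, 3 and 3 of the 8 in the comparisons of ENZ-NONE with DNC-NONE, DNC-INHIB and ENZ-INHIB, by 1 between the Dounce arms and by 0 in the comparisons of ENZ-INHIB with DNC-INHIB and with DNC-NONE. Over all genes tested that p was reached by 817, 926 and 485 in the first 3 and by 836 and 1031 in the last 2. In DNC-NONE vs DNC-INHIB, 0 genes of 9882 were called by edgeR, 435 had an unadjusted p under 0.05, and DESeq2 called 1. For ENZ-NONE the median log2 fold change of the 8 was 0.14 over DNC-NONE, and 0.36 and 0.31 over the inhibited groups DNC-INHIB and ENZ-INHIB, where the medians over all genes were 0.0023, 0.0057 and -0.0034. These comparisons share the ENZ-NONE libraries and are not independent.

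**Figure D1:**
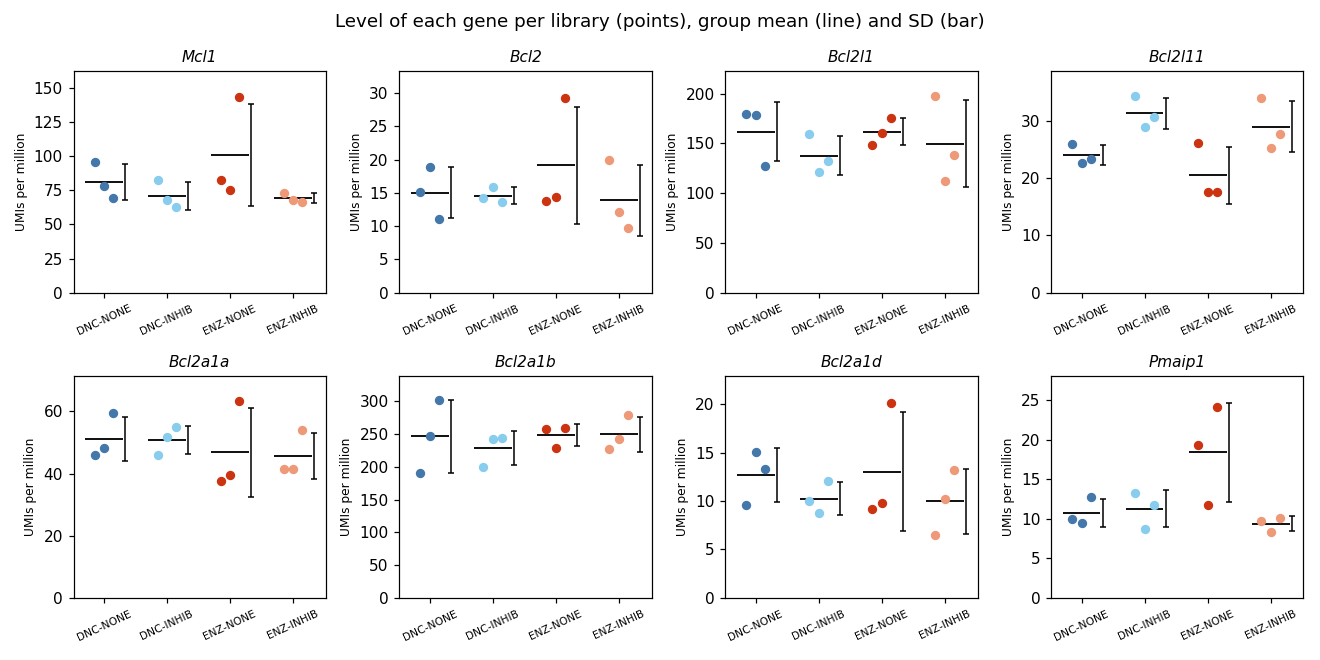
Level of each of the 8 genes in CPM (vertical axis, from 0) in the 12 libraries (points), by group, with the group mean (line) and SD (bar, n = 3). One ENZ-NONE library stands above all others for Mcl1 at 143.6 and for Bcl2 at 29.3, while the 4 groups overlap for Bcl2l1 and Bcl2a1b.

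Mcl1, which codes for the short-lived guardian, was at 95.6, 78.3 and 69.4 CPM in the 3 DNC-NONE libraries and at 82.3, 67.7 and 62.5 in DNC-INHIB. In ENZ-NONE it was at 82.6, 75.5 and 143.6, and in ENZ-INHIB at 73.3, 68.2 and 66.3. ENZ-NONE replicate 6 alone lay above every other library, and replicates 4 and 5 lay inside the range of the Dounce libraries. The highest group mean was that of ENZ-NONE at 100.6 ± 37.4 (SD, n = 3), followed by DNC-NONE at 81.1 ± 13.4, DNC-INHIB at 70.8 ± 10.3 and ENZ-INHIB at 69.3 ± 3.61, and no neighbours in that order were apart by more than their spread. The log2 fold change of ENZ-NONE was 0.37 ± 0.25 (SE) against DNC-NONE, 0.60 ± 0.24 against DNC-INHIB (edgeR, adjusted p = 0.462) and 0.61 ± 0.24 against ENZ-INHIB (edgeR, adjusted p = 0.972). Without replicate 6 these values were -0.03, 0.20 and 0.21. By batch, as the labels name it, the batch 1 mean of ENZ-NONE was 79.1, inside the 73.3 (ENZ-INHIB) to 87.0 (DNC-NONE) of the other groups, so the higher ENZ-NONE level was seen in batch 2 alone, where that group has 1 library.

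Mcl1 with and without inhibitors differed by no more than the spread between animals in Dounce. Between the Dounce arms the log2 fold change of DNC-NONE over DNC-INHIB was 0.22, with a 95% confidence interval from -0.34 to 0.79. The contrast of both arms without inhibitors against both with them, added after seeing the data, gave 0.42 (0.03 to 0.81; edgeR, adjusted p = 0.756) where 0.0708% of genes were called. The test of whether the inhibitor difference depended on the preparation gave 0.39 (-0.39 to 1.17; edgeR, adjusted p = 1), with 0.0607% of genes called.

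**Figure D2:**
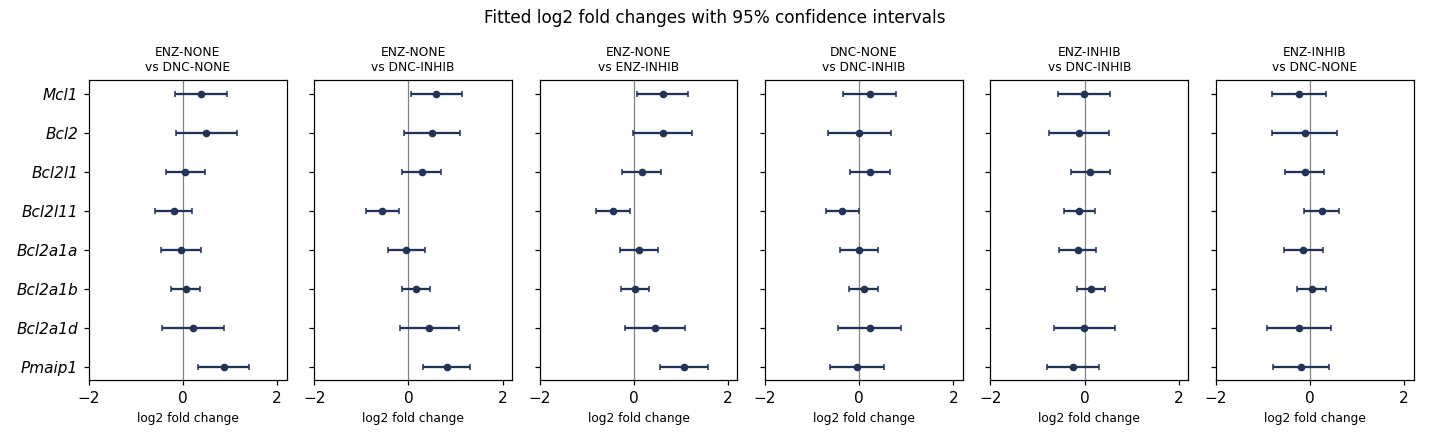
Fitted log2 fold change of each gene (horizontal axis) with its 95% confidence interval in the 6 comparisons. Intervals of Pmaip1 lie above 0 in the 3 comparisons of ENZ-NONE, those of Mcl1 lie above 0 and those of Bcl2l11 lie below 0 against both inhibited groups, and no gene passed the adjusted threshold.

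Bcl2, the founding guardian, was scarce. It had 420 UMIs in all. It ran from 13.8 to 29.3 CPM in ENZ-NONE, from 11.1 to 18.9 in DNC-NONE, from 9.74 to 19.9 in ENZ-INHIB and from 13.6 to 16.0 in DNC-INHIB. Again ENZ-NONE replicate 6 was the highest library, and the groups overlapped. Bcl2l1, whose main product BCL-XL guards neurons and many blood cells, ran from 148.8 to 175.8 in ENZ-NONE, from 127.7 to 179.3 in DNC-NONE, from 112.3 to 198.2 in ENZ-INHIB and from 121.6 to 159.3 in DNC-INHIB, so the groups overlapped. Its largest log2 fold change in the 6 comparisons was 0.28, with an interval from -0.13 to 0.70.

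The Bcl2a1 genes, which code for the guardian A1 and are best known from neutrophils and activated leukocytes, overlapped between the 4 groups and were not called. Bcl2a1b was at 190.5, 246.3 and 301.9 CPM in DNC-NONE, and at 199.3, 241.7 and 244.3 in DNC-INHIB. In ENZ-NONE it was at 257.1, 228.4 and 258.3, and in ENZ-INHIB at 226.8, 242.7 and 279.1. The lowest and the highest library were both DNC-NONE, so the spread within that group covered the other 3. The log2 fold change of the arm without inhibitors over the arm with them was 0.10 (-0.21 to 0.41) for Dounce and 0.02 (-0.28 to 0.33) for digestion, so differences of more than 0.41 either way lay outside both intervals. Bcl2a1a ranged from 37.7 to 63.4 over the 12 libraries, with both ends in ENZ-NONE. Bcl2a1d had 310 UMIs and ranged from 6.46 to 20.2, highest in ENZ-NONE replicate 6. Its log2 fold change of ENZ-NONE was 0.22 ± 0.32 (SE) against DNC-NONE, 0.44 ± 0.30 against DNC-INHIB and 0.45 ± 0.31 against ENZ-INHIB. The size of any difference in Bcl2a1d is thus uncertain. The split of Bcl2a1 UMIs was close in the 4 groups: Bcl2a1b took 78.9% to 81.7% and Bcl2a1d 3.35% to 4.45%. Bcl2a1c, which lies elsewhere on chromosome 9, had at most 2 UMIs in any library.

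Bcl2l11, which codes for the death-promoting BIM, went the other way. It was at 26.01, 22.7 and 23.3 CPM in DNC-NONE and at 26.2, 17.6 and 17.6 in ENZ-NONE. With inhibitors it was at 34.3, 28.9 and 30.6 in DNC-INHIB and at 33.9, 25.3 and 27.7 in ENZ-INHIB. The libraries without inhibitors reached 26.2 at most and those with them began at 25.3, so 2 libraries without inhibitors lay above the lowest library with them. Between the Dounce arms Bcl2l11 did not pass (edgeR, adjusted p = 0.999), and 0 of 9882 genes were called there. In cells thinned to equal depth (described below), the share of cells with a UMI overlapped between these arms. It was 2.23% to 2.72% in DNC-NONE and 2.61% to 3.50% in DNC-INHIB (exact permutation p = 0.3). The log2 fold change of ENZ-NONE was -0.56 ± 0.17 against DNC-INHIB (edgeR, adjusted p = 0.161), -0.45 ± 0.18 against ENZ-INHIB (edgeR, adjusted p = 0.891) and -0.20 ± 0.19 against DNC-NONE. DNC-NONE lay 0.36 below DNC-INHIB on the log2 scale, with an interval from -0.71 to 0.00. With both arms pooled the difference was -0.40 (-0.66 to -0.15; edgeR, adjusted p = 0.427). With batch as a covariate the first of these passed, at -0.63 (edgeR, adjusted p = 0.0494).

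Pmaip1, which codes for NOXA (chromosome 18, positions 66458533 to 66465565), had the largest fold changes of the 8. It was at 10.0, 9.44 and 12.8 CPM in DNC-NONE, at 13.3, 8.74 and 11.8 in DNC-INHIB and at 9.70, 8.29 and 10.1 in ENZ-INHIB. In ENZ-NONE it was at 19.3, 11.7 and 24.2. ENZ-NONE replicates 4 and 6 lay above the other 9, and replicate 5 lay among them. The log2 fold change of ENZ-NONE was 0.86 ± 0.26 against DNC-NONE (edgeR, adjusted p = 0.206), 0.81 ± 0.24 against DNC-INHIB (edgeR, adjusted p = 0.133) and 1.07 ± 0.25 against ENZ-INHIB (edgeR, adjusted p = 0.0673). Without replicate 5 all 3 passed, at 1.07, 1.02 and 1.27 (edgeR, adjusted p = 0.0465, 0.0283 and 0.00953), and without replicate 6 they were 0.58, 0.53 and 0.78. The gene had 339 UMIs in all, 18 to 66 in an ENZ-NONE library.

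Of the Pmaip1 UMIs of ENZ-NONE, 59.5% lay in microglia-like cells and the rest in few other cells. The 180 other cells of ENZ-NONE held 51 of its 126 Pmaip1 UMIs, whereas such cells held 7 of 66 in ENZ-INHIB (184 cells), 15 of 58 in DNC-NONE (245 cells) and 12 of 89 in DNC-INHIB (252 cells). Dendritic cell-like cells carried 28 UMIs in 10 ENZ-NONE cells, of which 21 lay in 8 cells of replicate 6 and 6 in a single cell of replicate 4. Such cells carried 2 UMIs in 22 cells of DNC-NONE, 2 in 20 of DNC-INHIB and 1 in 6 of ENZ-INHIB. Monocyte-like cells carried 6, 5 and 7 UMIs in 4, 5 and 23 cells of ENZ-NONE replicates 4, 5 and 6. They carried 3 UMIs in 23 cells of ENZ-INHIB, and in the Dounce groups 5 in 53 cells without inhibitors and 6 in 24 with them. The Pmaip1 level of monocyte-like cells was above that of dendritic cell-like cells in DNC-NONE (44.3 and 37.9 CPM), DNC-INHIB (135.9 and 36.5) and ENZ-INHIB (81.5 and 68.1), and below it in ENZ-NONE (286.4 and 851.7). With microglia-like cells alone the Pmaip1 level was 11.6 ± 3.38 (SD, n = 3) in ENZ-NONE and 8.64 ± 0.66 in ENZ-INHIB. In the Dounce groups it was 8.57 ± 1.38 without inhibitors and 10.3 ± 3.02 with them. The log2 fold changes of ENZ-NONE in that fit were 0.52, 0.28 and 0.51, which did not pass. The same restriction left Mcl1 at 0.39, 0.57 and 0.57 and Bcl2l11 at -0.21, -0.54 and -0.42.

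**Figure D3:**
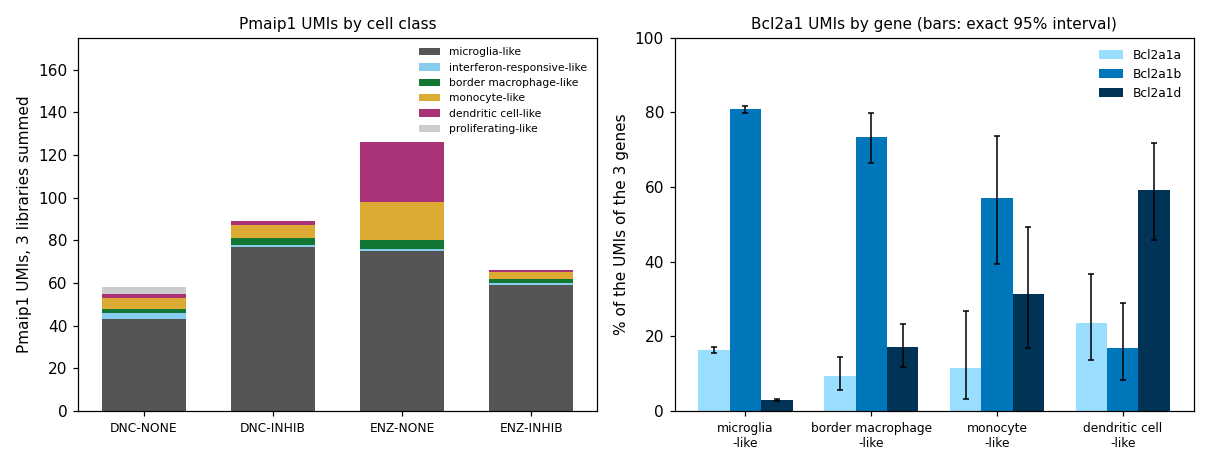
Left, Pmaip1 UMIs of the 3 libraries of each group (vertical axis) stacked by cell class, with 75 of 126 in microglia-like cells of ENZ-NONE. Right, percent of the UMIs of the 3 Bcl2a1 genes that came from each, by class over the 12 libraries, with exact 95% intervals that cover counting error only; Bcl2a1b leads in 3 classes and Bcl2a1d in dendritic cell-like cells.

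The 8 genes also differed by cell class, described here without a test because classes were made from the same cells. Mcl1 was at 77.9 CPM in microglia-like cells, 127.9 in border macrophage-like, 233.6 in monocyte-like and 141.8 in dendritic cell-like cells, and it was higher in border macrophage-like than in microglia-like cells of the same library in 10 of 12 libraries. The same held in 9 of 12 for monocyte-like cells (no Mcl1 UMI in 3) and in 6 of 12 for dendritic cell-like cells (no UMI in 4). Of the 22 Mcl1 UMIs of dendritic cell-like cells, 10 came from ENZ-NONE replicate 6, and in DNC-NONE their level, 75.7, was not above the 78.6 of microglia-like cells. Bcl2l1 ran against this, at 152.2 in microglia-like and 146.7 in border macrophage-like cells but 15.6 in monocyte-like (4 UMIs) and 19.3 in dendritic cell-like cells (3 UMIs). Bcl2a1b was at 246.2 and 250.2 in the first 2 classes and at 77.9 and 64.5 in the last 2. Bcl2a1d was at 8.91 in microglia-like cells and at 58.3, 42.8 and 225.6 in border macrophage-like, monocyte-like and dendritic cell-like cells. It was above the microglia-like level of the same library in 10 of 12 libraries for border macrophage-like cells and in 10 of 12 for dendritic cell-like cells. For monocyte-like cells this held in 6 of 12, with no Bcl2a1d UMI in 6. Their level rests on 11 UMIs, of which 6 came from ENZ-NONE. In the border macrophage-like clusters led by H2-Eb1 and by Pf4, Mcl1 was at 129.8 and 123.8, Bcl2a1b at 303.9 and 135.6, and Bcl2a1d at 71.8 and 29.5. Microglia-like cells were not uniform either. Their cluster led by Lpl and Cst7 (425 cells) had Bcl2a1b at 488.9, Bcl2l1 at 256.1 and Bcl2a1d at 34.23. In the 3 largest microglia-like clusters Bcl2a1b ran from 219.4 to 269.5 and Bcl2l1 from 129.3 to 156.2.

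The balance among the near copies thus changed with the class. In microglia-like cells Bcl2a1b made up 80.8% of the UMIs of the 3 genes (exact 95% interval 79.9% to 81.7%) and Bcl2a1d 2.93% (2.56% to 3.33%). In dendritic cell-like cells Bcl2a1d made up 59.3% (45.7% to 71.9%) and Bcl2a1b 16.9% (8.44% to 29.0%), with 59 UMIs in all. Border macrophage-like cells had 17.1% (11.9% to 23.4%) from Bcl2a1d, and monocyte-like cells 31.4% (16.9% to 49.3%), the latter on 11 of 35 UMIs. Reads shared by the copies are left out of these shares.

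**Figure D4:**
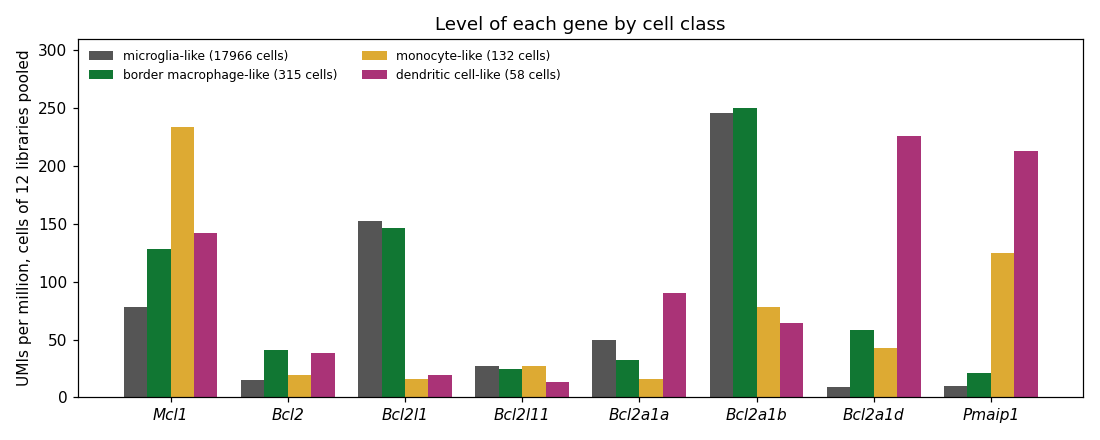
Level of each gene in CPM (vertical axis, from 0) in the pooled cells of 4 classes over the 12 libraries, without error bars because cells are not replicates. Mcl1 is highest in monocyte-like cells at 233.6, Bcl2l1 and Bcl2a1b in microglia-like and border macrophage-like cells, and Bcl2a1d in dendritic cell-like cells at 225.6. The pooled Pmaip1 level of dendritic cell-like cells, 212.7, rests on 33 UMIs, of which 28 came from ENZ-NONE, and in the other 3 groups monocyte-like cells had the higher level.

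Most cells gave no UMI of a member, and of the cells with one, 79.4% (Bcl2a1b) to 95.1% (Bcl2l11) held a single UMI. Without thinning, Mcl1 was seen in 8.38% to 19.4% of the cells of a library, Bcl2a1b in 21.8% to 34.3%, Bcl2l1 in 14.0% to 22.9%, and Bcl2a1a in 4.84% to 8.92%. Bcl2l11 was seen in 2.23% to 4.49%, Bcl2 in 1.29% to 4.06%, Bcl2a1d in 0.882% to 2.52% and Pmaip1 in 0.938% to 2.46%. In ENZ-NONE replicate 6, Mcl1 was in 339 of 1748 cells (19.4%, exact 95% interval 17.6% to 21.3%), and the next library, DNC-NONE replicate 1, had 213 of 1839 (11.6%, 10.2% to 13.1%). At least 1 of the 3 Bcl2a1 genes was seen in 26.4% to 40.2% of cells. The share that free RNA alone would give was not measured, for want of a sorted cell type that lacks the genes. The monocyte-like and dendritic cell-like cells, with median UMI counts of 1865 and 2581 against 1333 in microglia-like cells, held Bcl2l1 in 3.03% and 5.17%.

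Cells were then thinned to 1000 UMIs each, so that depth could not set the share, and the 3 ENZ-NONE libraries were compared with the other 9 by an exact permutation test (two-sided, 220 assignments, 8 tests, p not adjusted). Over all genes 6.51% had a two-sided p under 0.05 in this test, and 2 of the 8 genes did, Mcl1 and Bcl2l11. Bcl2l11 was seen in 1.89% ± 0.28 (SD, n = 3) of thinned ENZ-NONE cells and in 2.74% ± 0.38 (n = 9) of the others (exact permutation p = 0.00909, the smallest this design can give). Its ENZ-NONE libraries reached 2.17% at most and the other 9 began at 2.23%, a separation in this direction that 0.86% of all genes share. Within batches the exact permutation p was 0.0222, and leaving out any 1 library kept p between 0.0121 and 0.0364. The difference did not pass without thinning (exact permutation p = 0.0727) or in the deeper cells thinned to 2000 UMIs (exact permutation p = 0.382). Against each other group, 3 libraries against 3, the exact permutation p was 0.1, the smallest possible.

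Mcl1 was seen in 9.60% ± 3.16 of thinned ENZ-NONE cells and in 6.86% ± 0.82 of the others (exact permutation p = 0.0455), and within batch the exact permutation p was 0.111. Without ENZ-NONE replicate 6 the difference shrank from 2.74 to 0.93 percentage points (exact permutation p = 0.182), and leaving out any of 10 of the 12 libraries took the exact permutation p above 0.05. Pmaip1 was seen in 1.36% ± 0.29 against 0.925% ± 0.32 (exact permutation p = 0.0818). For Bcl2, Bcl2l1, Bcl2a1a, Bcl2a1b and Bcl2a1d the exact permutation p lay between 0.2 and 0.718. Without and with inhibitors, in that order, the thinned share of Mcl1 was 7.26% and 6.95% in Dounce and 9.60% and 6.35% in digestion, and that of Bcl2a1b 21.5% and 19.3% in Dounce and 21.2% and 21.1% in digestion.

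**Figure D5:**
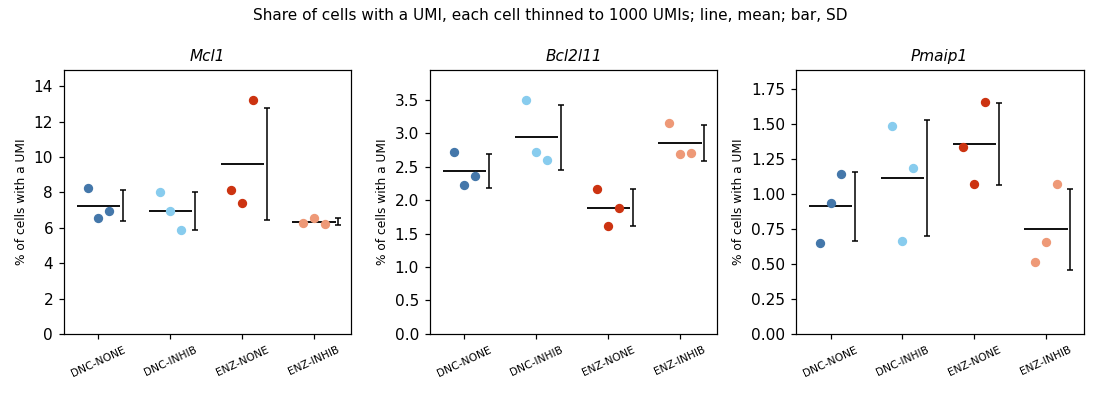
Percent of cells with a UMI of Mcl1, Bcl2l11 or Pmaip1 (vertical axis, from 0) after thinning each cell to 1000 UMIs, per library (points), with group mean (line) and SD (bar, n = 3). ENZ-NONE lies lowest for Bcl2l11, at 1.61% to 2.17%, and 1 ENZ-NONE library stands apart for Mcl1 at 13.2%.

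Within ENZ-NONE, Mcl1 was higher in the cells that carried the activation genes. After thinning, cells with at least 4 of the 19 genes were counted as positive; 518 of the 1760 positive ENZ-NONE cells had exactly 4, and 682 further cells had 3, so the division is a range and not a type. Mcl1 was at 104.5 CPM in positive and 74.1 in negative cells of replicate 4, at 92.0 and 68.7 in replicate 5 and at 166.3 and 111.7 in replicate 6. All 3 libraries had the same direction, and the negative cells of replicate 6 still exceeded every inhibited library. Pmaip1 was at 34.3 and 13.4, 24.7 and 6.42, and 31.4 and 14.1 in the same pairs. These levels rest on 21 and 21, 11 and 7, and 50 and 16 UMIs. Its thinned share of cells was 1.839% and 1.145%, 2.516% and 0.4994%, and 1.688% and 1.619%, so in replicate 6 the share hardly differed. Of the 66 UMIs of replicate 6, 21 lay in 8 dendritic cell-like cells, as given above. Bcl2l1 was also higher in positive cells of all 3 libraries, at 171.4 and 139.9, 163.8 and 159.5, and 193.3 and 151.3. Bcl2a1a was too, at 39.18 and 37.05, 49.37 and 35.74, and 67.15 and 58.07. Bcl2a1d was too, at 9.80 and 8.94, 17.95 and 6.42, and 24.48 and 14.08, on 6 to 39 UMIs each. Bcl2a1b was at 271.0 and 251.7, 213.2 and 234.6, and 278.7 and 229.7, with no common direction. Bcl2 and Bcl2l11 had no common direction either. In DNC-NONE replicate 1, Mcl1 was at 103.1 CPM in positive and 94.9 in negative cells, with thinned shares of 8.57% and 8.23%. Every other Dounce library also had Mcl1 higher in positive cells, at 100.9 to 223.4 CPM against 61.4 to 81.1 in negative cells. Those positive levels rest on few cells, with 1 to 5 Mcl1 UMIs per library. In ENZ-INHIB, Mcl1 was higher in positive cells of replicate 1 (2 UMIs), and those of replicates 2 and 3 held no Mcl1 UMI. By cluster, Mcl1 was at 163.1 in the microglia-like cluster led by Adamts1 and Fos (1039 cells) and at 65.2 to 75.2 in the 3 largest microglia-like clusters. Without the Adamts1 and Fos cluster, the Mcl1 log2 fold change of ENZ-NONE was 0.20 over DNC-NONE, 0.40 over DNC-INHIB and 0.43 over ENZ-INHIB, an alternative added after seeing the data.

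Of 17 further BCL2-family genes, among them the pore formers Bax and Bak1, 10 passed the count filter, and the number called was 0 throughout. Their log2 fold changes ran from -0.34 to 0.36 in ENZ-NONE vs DNC-NONE. The set of 10 genes with short-lived mRNAs, 4 of which are also among the 19 activation genes that the study chose, had 0 called against DNC-NONE and 2 against each inhibited group. Its median log2 fold change was 1.37 for ENZ-NONE against DNC-NONE, 1.82 against DNC-INHIB and 2.05 against ENZ-INHIB. Zfp36, an mRNA decay factor, and Junb, an AP-1 subunit, rose in ENZ-NONE against DNC-INHIB, by 3.25 and 2.22 on the log2 scale (edgeR, adjusted p = 0.0207 and 0.0432). Both also rose against ENZ-INHIB, by 3.40 and 2.49 (edgeR, adjusted p = 0.034 and 0.0495), and neither passed against DNC-NONE. None of the 10 was called between the Dounce arms, where the median was 0.27.

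Across the 12 libraries the levels nearest to Mcl1 by Pearson's r of log2 levels, among 6043 genes, were those of Eif1a (0.94), Gadd45g (0.93), Nfyb (0.92), Socs3 (0.91) and Ifitm10 (0.91). Nearest to Bcl2a1b were Comtd1 (0.95), Ndufc2 (0.89), C3ar1 (0.89), Gpx4 (0.89) and Tmub2 (0.89). The points share batch and group, and ENZ-NONE replicate 6 is at the high end for Mcl1. Among the members, r was 0.76 between Mcl1 and Bcl2, 0.74 between Mcl1 and Pmaip1, -0.51 between Mcl1 and Bcl2l11 and -0.04 between Mcl1 and Bcl2a1b.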

How the data were processed

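Sorted mouse brain myeloid cells were sequenced as 12 libraries with the 10X Genomics version 2 3′ kit. The authors made UMI counts per gene and cell with Cell Ranger (3.0.0) against mm10 (GRCm38) and deposited them unnormalized, before the cell filters of the study. Collapsing to UMIs removes PCR copies. Reads that fit several genes equally were not counted.

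Cells with at least 500 genes, 1000 UMIs and at most 10% mitochondrial UMIs were kept. A marker rule removed 3 cells (0.0159%) as doublets, too few to have worked. Counts were summed per animal and tested with edgeR (4.0.16; TMM, robust quasi-likelihood, 12 libraries, no covariate), after a test on simulated data. Clusters (scanpy 1.11.5) left out the 8 genes and the activation genes. Exact intervals of shares cover counting error only. Confidence intervals of log2 fold changes come from the edgeR fit and include the spread between animals. DESeq2 (1.42.0), other scalings, filters, batch and left-out libraries were alternatives. All 8 genes were named; list genes were given values if called; the 5 nearest genes by r were taken at a mean of at least 20 CPM. Members and lists were chosen with earlier results of these data known. Replicates were separate animals and differed by more than sampling noise (chi-square per degree of freedom 1.6 to 6.5). One gene list of the design is not reported here.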

Additional observations from a re-analysis of the deposited data

How the results depend on the processing

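None of the 8 genes was called in 58 of the 64 combinations of gene and contrast under any of the settings run. The exceptions concerned Pmaip1, Mcl1 and Bcl2l11 in the comparisons of ENZ-NONE; the cause was not tested. With no low-count filter 2 of the 8 were called against DNC-INHIB and 2 against ENZ-INHIB, in both cases Mcl1 (0.59 and 0.60; edgeR, adjusted p = 0.0263 and 0.0476) and Pmaip1 (0.81 and 1.06; edgeR, adjusted p = 0.0488 and 0.00764). With batch as a covariate, 1 was called against DNC-INHIB (Bcl2l11, -0.63) and 1 against ENZ-INHIB (Pmaip1, 1.14). The looser cell filter called 1 against DNC-NONE (Pmaip1, 1.08), and removal of the highest Scrublet scores called 1 against ENZ-INHIB (Pmaip1, 1.15). Leaving out 1 library gave 0 to 1 called genes of the 8 in each ENZ-NONE comparison.

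Numbers of genes called over all genes moved more. In ENZ-NONE vs DNC-NONE they were 46, 102 with no low-count filter, 23 with only the 2 groups fitted, and 29 to 67 leaving out a library. In ENZ-NONE vs DNC-INHIB they were 73, 142 with no low-count filter and 46 to 69 leaving out a library. In ENZ-NONE vs ENZ-INHIB they were 29, 60 with no low-count filter, 19 with only the 2 groups fitted and 14 to 33 leaving out a library. In DNC-NONE vs DNC-INHIB they were 0, 1 with DESeq2, batch or microglia-like cells alone, 2 with only the 2 groups fitted, 19 with no low-count filter and 0 to 1 leaving out a library. In ENZ-INHIB vs DNC-INHIB they were 20, 10 with DESeq2, 67 with no low-count filter, 36 with batch, 51 with only the 2 groups fitted, 11 after thinning, 35 with the looser cell filter and 5 to 17 leaving out a library. In ENZ-INHIB vs DNC-NONE they were 17, 108 with no low-count filter, 4 after thinning, 27 with the looser cell filter, 10 without robust estimation and 1 to 28 leaving out a library. For the interaction they were 6, 17 with DESeq2 or without robust estimation, 16 with no low-count filter, 10 with batch and 4 to 10 leaving out a library. For the pooled arms they were 7, 26 with DESeq2, 38 with no low-count filter, 22 without robust estimation and 4 to 11 leaving out a library. Libraries whose omission moved a count by over 1.5 times were DNC-NONE replicate 2 (29) in ENZ-NONE vs DNC-NONE, DNC-INHIB replicates 5 and 6 (46 each) in ENZ-NONE vs DNC-INHIB, ENZ-INHIB replicates 1, 2 and 3 (14, 16 and 15) in ENZ-NONE vs ENZ-INHIB, each DNC-NONE replicate (1) between the Dounce arms, DNC-INHIB replicates 5 and 6 (8 and 7) and ENZ-INHIB replicates 2 and 3 (5 and 10) in ENZ-INHIB vs DNC-INHIB, DNC-NONE replicates 1 and 3 (6 and 28) and ENZ-INHIB replicates 2 and 3 (1 and 7) in ENZ-INHIB vs DNC-NONE, ENZ-NONE replicate 5 (10) for the interaction, and DNC-NONE replicate 2 (4) and ENZ-NONE replicate 6 (11) for the pooled arms. Robust estimation, the pooled arms and the removal of the Adamts1 and Fos cluster were chosen after seeing the data.

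The replicate block moved the number of called genes from 17 to 90 in ENZ-INHIB vs DNC-NONE and from 73 to 104 in ENZ-NONE vs DNC-INHIB, and called none of the 8. Deviations of same-numbered libraries correlated at -0.08 to 0.23 in the latter pair and -0.06 to 0.29 in the former. Those of different-numbered libraries correlated at -0.274 to 0.145 and -0.336 to 0.164. Numbers 4 and 6 in the latter pair (0.232 and 0.218) and 1 and 3 in the former (0.289 and 0.261) lay above these ranges. Numbers 5 and 2, whose libraries lay in different batches, did not. The labels do not say that a number marks a shared day, so the numbers were not taken to pair animals.

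For the shares, Mcl1 differed by 3.56 percentage points without thinning (exact permutation p = 0.145), 3.85 at 2000 UMIs (p = 0.245) and 1.39 at 500 UMIs (p = 0.136), and by 0.93 to 3.83 leaving out a library. Bcl2l11 differed by -0.96, -1.71 and -0.28 in the same order (exact permutation p = 0.0727, 0.382 and 0.164). Pmaip1 passed without thinning (0.62; exact permutation p = 0.0455) and at 500 UMIs (0.31; p = 0.00909), and differed by 0.28 to 0.57 leaving out a library, passing without DNC-INHIB replicate 4 (exact permutation p = 0.0364). Bcl2l1 passed at 2000 UMIs (6.52; exact permutation p = 0.0364). Bcl2a1a ranged from -1.34 to -0.0725 leaving out a library, and without ENZ-NONE replicate 6 its exact permutation p was 0.0364. Depth limited Pmaip1, Bcl2a1d, Bcl2 and Bcl2l11, with 10 to 99 UMIs per library.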
